A study of Homo sapiens with 6 samples.

Results

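Interferon-stimulated genes were examined in RNA-seq data of B cells that were converted into macrophages with and without CTCF. The set comprised 42 genes of the antiviral response, taken by symbol from a table of 30017 genes. All 42 had a row in the table and 41 had enough counts to be tested; the exception was *IFI27*, for which 5 and 4 counts were found at 0 h, 0 and 1 in control cells at 96 h and 0 after CTCF depletion. The cells were BLaER1-CTCF-mAID cells, a single subclone of a human B cell leukemia line that carries an inducible C/EBPα, a myeloid transcription factor whose activation turns these cells into macrophages. In all 6 libraries the CTCF protein carried an auxin-inducible degron, through which the auxin indole-3-acetic acid (IAA) directs CTCF to degradation. The groups were untreated cells (0 h), cells 96 h after addition of the transdifferentiation factors (estradiol, IL-3 and CSF-1) without IAA (96 h control) and cells that received the same factors together with IAA for 96 h (96 h CTCF-depleted), with 2 replicates each. IAA-treated cells without the degron were not analysed here, so that an effect of IAA itself and an effect of CTCF loss cannot be told apart.

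Interferons are secreted proteins that act through cell surface receptors and the kinases of the JAK family. In the type I response, the kinases activate a complex that contains STAT2 and IRF9, which binds the interferon-stimulated response element (ISRE) near the start of its target genes. The products of these genes detect foreign nucleic acids, block viral translation and entry, degrade RNA or attenuate the signal. Macrophages are known for a strong response of this kind, and many of these genes also have a basal level in the absence of added interferon.

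The ISRE is shown here because it was found in most of the promoters examined. Its sequence was not used to choose the genes, but they were listed as interferon-stimulated. A high share with this element is therefore no independent result. Its core was searched as 2 copies of GAAA with 2 bases of any kind between them, on both strands, with overlapping matches allowed, in the RefSeq promoter windows of build GRCh38.p14, which run from 250 bases before to 50 bases after a gene's start. Of the 42 genes, 33 had a window, and 24 of these (72.7%) held at least 1 core, compared to 1195 of 27305 genes with a window in the whole annotation (4.38%). The 150 bases before the start are printed for 5 genes with different expression patterns, 5′ to 3′ on the strand of the gene, with the core in capitals; a core on the other strand reads as 2 copies of TTTC. *OAS1* (chr12:112906812-112906961, plus strand) rose most among the genes with 10 or more counts in each 0 h library, and no core was found in its window. Near the end of the *OAS1* stretch, 2 copies of GAAA stand with 1 base between them, a form that the search did not count. The neighbouring *OAS3* (chr12:112938324-112938473, plus strand) held 2 cores and fell. *IFIT1* (chr10:89392473-89392622, plus strand) held 2 cores and rose, whereas *IFIT5* of the same gene cluster (chr10:89414418-89414567, plus strand) held 3 cores and fell; the last of them runs across the start, so that only its first 4 bases are seen. *BST2* (chr19:17405631-17405780, minus strand) held 2 overlapping cores and was higher in both comparisons. A match describes the letters only, and neither a match nor its absence shows what binds there.
OAS1: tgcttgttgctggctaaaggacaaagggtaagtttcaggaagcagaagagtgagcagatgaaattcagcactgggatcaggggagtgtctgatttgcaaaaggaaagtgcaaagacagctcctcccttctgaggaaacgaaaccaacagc
OAS3: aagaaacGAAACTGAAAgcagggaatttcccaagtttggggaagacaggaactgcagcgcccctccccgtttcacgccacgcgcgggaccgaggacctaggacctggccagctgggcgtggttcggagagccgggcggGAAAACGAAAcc
IFIT1: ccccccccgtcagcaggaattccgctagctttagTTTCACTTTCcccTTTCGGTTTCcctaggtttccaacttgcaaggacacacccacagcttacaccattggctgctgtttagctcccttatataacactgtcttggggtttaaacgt
IFIT5: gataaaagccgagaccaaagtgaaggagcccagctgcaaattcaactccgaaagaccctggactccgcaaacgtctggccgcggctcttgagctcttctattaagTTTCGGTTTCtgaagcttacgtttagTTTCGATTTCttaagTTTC
BST2: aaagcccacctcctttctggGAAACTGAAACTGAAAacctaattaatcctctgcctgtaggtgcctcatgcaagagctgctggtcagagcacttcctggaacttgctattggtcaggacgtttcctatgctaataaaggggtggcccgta

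Total counts ranged from 9273470 to 12718780 per library, and 14758 genes were tested with edgeR's quasi-likelihood model. Genes are called higher or lower where the adjusted p-value was under 0.01 and the log2 fold change exceeded 0.6 in size, the thresholds of the study. The study applied them to results of DESeq2, which is given here as an alternative to edgeR. Levels are given as counts per library and as CPM, for which counts were scaled with the TMM method, with the SD over 2 libraries. Since 2 against 2 libraries allow no two-sided p-value under 0.333 in an exact permutation test, the p-values depend on how edgeR pools the spread of many genes. In bulk RNA, fewer cells with a transcript and less transcript per cell cannot be told apart. Cell identity followed the labels: the 14 B cell markers were all called lower and the 14 macrophage markers were all called higher at 96 h in control cells. Of 6 markers of T and NK cells, *CD3D*, *CD3E*, *GNLY* and *KLRD1* had at most 2 counts in a library, while *CD2* (0 and 0 counts at 0 h, 40 and 38 in control libraries) and *NKG7* (24 and 38 counts, then 395 and 373) were called higher at 96 h in control cells. The summed level of this list was 2.71 ± 0.19 CPM at 0 h, 38.4 ± 0.23 CPM at 96 h with CTCF and 33.6 ± 1.58 CPM at 96 h without it. Of 5 markers of plasmacytoid dendritic cells, *LILRA4*, *CLEC4C* and *GZMB* had at most 11 counts in a library, *IL3RA* was called higher (20 and 26 counts, then 659 and 653) and *TCF4* was called lower (3465 and 5051 counts, then 2004 and 2086). Of the T and NK cell list and the plasmacytoid dendritic cell list, only 2 genes each were tested, and none was called upon CTCF depletion. Of the 14 B cell markers, 2 were then called higher (*VPREB3*, *CD22*) and 3 lower (*VPREB1*, *IGLL1*, *RAG1*). Of the 14 macrophage markers, 2 were called higher (*ITGAM*, *CD33*) and 2 lower (*MRC1*, *MSR1*). Over all tested genes, 5.41% were higher and 7.03% lower in this comparison. The part of the marker genes in the results was not tested.

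Conversion changed the interferon-stimulated genes in both directions. Comparing 96 h control with 0 h libraries, 19 of the 41 tested genes were higher (46.3%; 25.4% of all tested genes were higher) and 9 were lower (22.0%; 22.9% of all tested genes were lower); in either direction, 68.3% of the set and 48.3% of all tested genes were called. The median log2 fold change of the 41 genes was 0.42, compared to 0.02 over all tested genes, and the quartiles of the set were -0.54 and 1.33. The higher genes include *GBP2*, *EPSTI1*, *OASL*, *USP18* and *IFI44L*, with 0 to 4 counts in each 0 h library. These could be tested only through their counts at 96 h. With at least 10 counts required in every library, these genes dropped out, as did *GBP1*, which was lower. Most of the median log2 fold change was then lost, as given in the closing section. The summed level of the 42 genes was 1106 ± 27.2 CPM at 0 h and 1359 ± 20.9 CPM at 96 h in control cells (SD, n = 2 each). The groups did not overlap for 35 of the 41 genes (85.4%), which is close to the 86.7% over all tested genes.

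**Figure D1:**
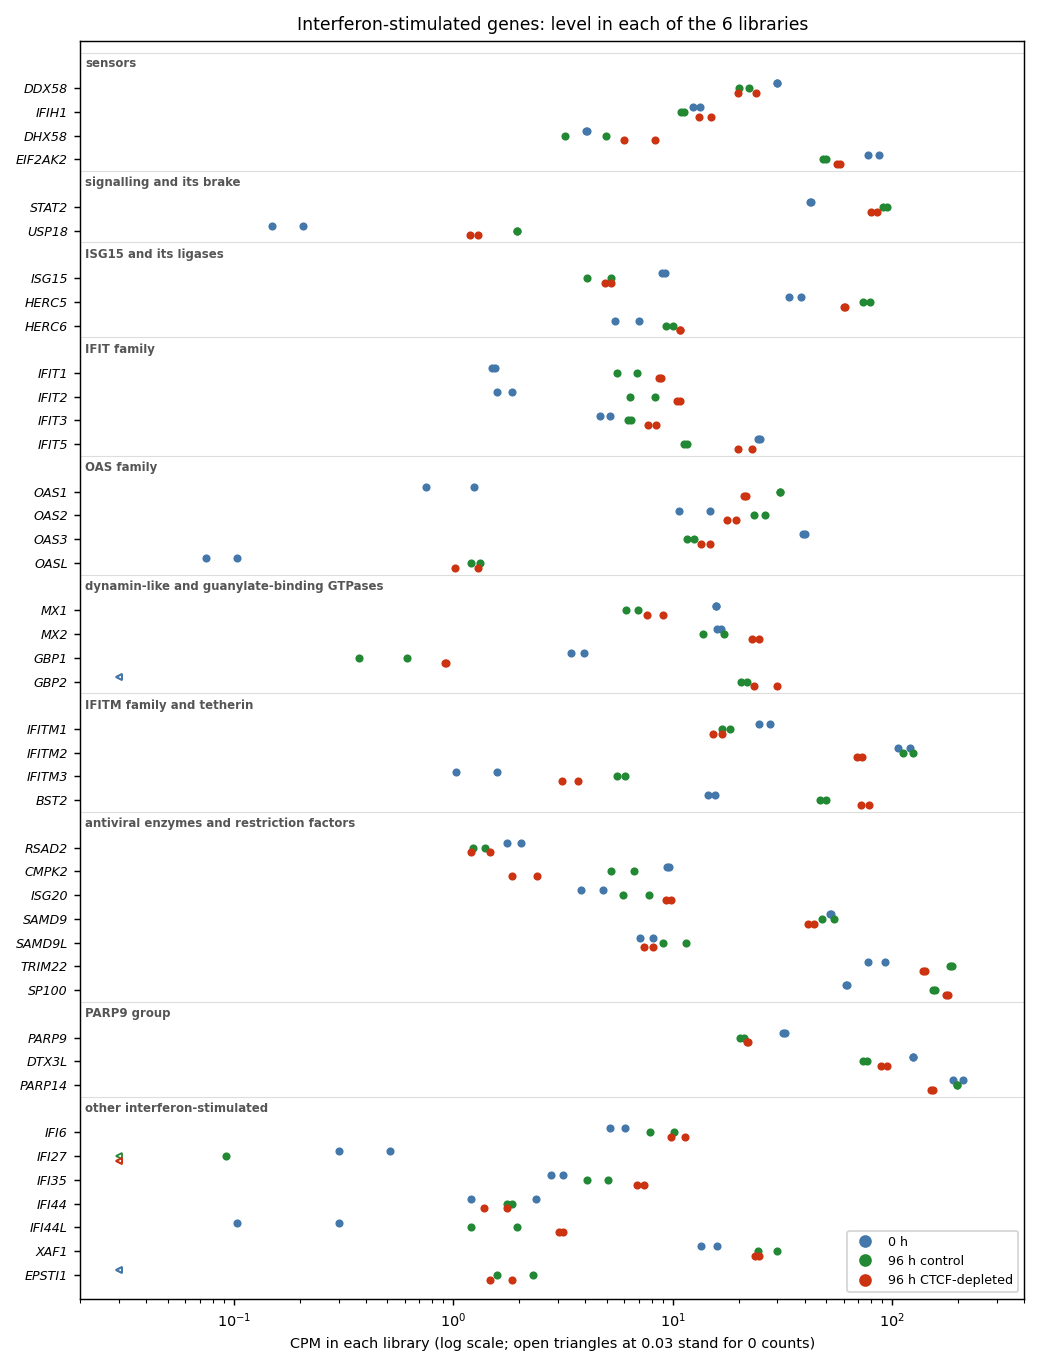
Level of the 42 interferon-stimulated genes in CPM on a log axis, ordered by role; each point is 1 of the 6 libraries, colours mark 0 h, 96 h control and 96 h CTCF-depleted libraries, and open triangles at the left edge stand for 0 counts. *GBP2* and *EPSTI1* had no count at 0 h, and among the other tested genes *OAS1* shows the widest gap towards higher and *GBP1* towards lower values at 96 h.

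The OAS family, which senses double-stranded RNA and activates the RNA-degrading enzyme RNase L or, in the case of OASL, acts without this activity, was split. *OAS1* had 12 and 10 counts at 0 h, 349 and 334 in control and 228 and 235 in CTCF-depleted libraries. The 0 h libraries lay far below the others, and the log2 fold change of control cells relative to 0 h was 5.00 ± 0.20 (standard error; adjusted p = 1.89e-30). *OAS3*, which lies between *OAS1* and *OAS2* on chromosome 12, had 389 and 521 counts at 0 h, 142 and 126 in control and 159 and 146 in CTCF-depleted libraries. Both 0 h libraries were above all others, and *OAS3* fell by 1.71 ± 0.11 on the log2 scale (adjusted p = 1.42e-20). *OAS2* rose by 0.95 ± 0.13 (adjusted p = 3.07e-09). *OASL* had 1 count in each 0 h library, 15 and 13 counts in control and 14 and 11 in CTCF-depleted libraries. From such low counts, its ratio of control to 0 h was 14.6, with a 95% counting interval of 3.67 to 126.

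The guanylate-binding proteins, GTPases that attack intracellular pathogens, showed the widest separation. *GBP2* (chr1:89106132-89150456) had no count in either 0 h library, 231 and 236 counts in control libraries and 322 and 254 counts in CTCF-depleted libraries. Relative to a floor of 3 counts over both 0 h libraries, it was at least 162-fold higher in control cells. Its neighbour *GBP1* (chr1:89051882-89065360) had 38 and 46 counts at 0 h, 7 and 4 in control and 10 and 10 in CTCF-depleted libraries. *GBP1* fell by 2.85 ± 0.43 on the log2 scale in control cells (adjusted p = 5.07e-08), so that the 2 genes moved in opposite directions. *EPSTI1*, a gene of macrophage activation, also went from no count at 0 h to 18 and 25 counts in control and 20 and 16 in CTCF-depleted libraries, and was at least 14.9-fold higher in control cells. The dynamin-like GTPase *MX1*, which traps viral ribonucleoproteins, had 153 and 209 counts at 0 h, 79 and 66 in control and 97 and 83 in CTCF-depleted libraries, a decrease of 1.26 ± 0.16 on the log2 scale in control cells (adjusted p = 7.97e-10). For its paralog *MX2* the log2 fold change was -0.07 ± 0.13 and the control and 0 h libraries overlapped.

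The IFIT proteins bind viral RNA and restrain its translation. *IFIT1* and *IFIT2* rose by 2.03 ± 0.27 and 2.10 ± 0.26 on the log2 scale, whereas *IFIT3* had a log2 fold change of 0.39 ± 0.21 and was not called. *IFIT5* had 242 and 327 counts at 0 h, 132 and 121 in control and 247 and 216 in CTCF-depleted libraries. The control libraries were the lowest of the 6, and *IFIT5* fell by 1.11 ± 0.13 in control cells (adjusted p = 1.14e-11). The summed level of the 4 genes was 32.9 ± 0.90 CPM at 0 h and 31.4 ± 0.30 CPM in control cells, since *IFIT5* made up most of the sum at 0 h.

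Among the proteins that act at membranes, *BST2* (tetherin, which holds budding virus particles at the cell surface) rose by 1.70 ± 0.10 and *IFITM3*, which blocks fusion of viruses in endosomes, rose by 2.11 ± 0.30. *IFITM1* and *IFITM2* were not called, with log2 fold changes of -0.57 ± 0.12 and 0.06 ± 0.07. The restriction factors *TRIM22* and *SP100*, the latter a scaffold of nuclear bodies, rose by 1.11 ± 0.06 and 1.33 ± 0.06, and the exonuclease *ISG20* rose by 0.65 ± 0.21, a call that was lost in DESeq2 (adjusted p = 0.0436) and without the first 0 h or the first control library (0.51 and 0.40). *TRIM22* was among the most abundant transcripts of the set, with 753 and 1238 counts at 0 h, 2066 and 2029 in control and 1520 and 1498 in CTCF-depleted libraries. The mitochondrial nucleotide kinase *CMPK2* fell by 0.68 ± 0.19, which was not called by DESeq2 (adjusted p = 0.0306) or without the first control library (-0.55), and its neighbour *RSAD2* (viperin), *SAMD9* and *SAMD9L* were not called, with log2 fold changes of -0.54, -0.04 and 0.42.

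None of the 4 RNA sensors outside the OAS family was called higher. *EIF2AK2*, the kinase PKR that halts translation, fell by 0.76 ± 0.08, and *DDX58* (RIG-I), *IFIH1* (MDA5) and *DHX58* (LGP2) were not called, with log2 fold changes of -0.50, -0.22 and 0.02. The signal transducer *STAT2* rose by 1.12 ± 0.08. *USP18*, which removes ISG15 from proteins and attenuates receptor signalling, had 2 counts in each 0 h library and 22 and 21 in control libraries, a ratio of 11.2 with a 95% counting interval of 4.07 to 42.9. The ubiquitin-like modifier *ISG15* fell by 0.96 ± 0.20, while *HERC5*, the ligase that attaches it, rose by 1.08 ± 0.08 and the related *HERC6* rose by 0.61 ± 0.18, just inside the fold change threshold. The call of *HERC6* was lost in DESeq2 (adjusted p = 0.0261), with RLE normalization, with no filter on low counts and without the first 0 h library or either control library (log2 fold changes of 0.45 to 0.62). *PARP9* and its partner ubiquitin ligase *DTX3L* fell by 0.64 ± 0.10 and 0.73 ± 0.06, and *PARP14* had a log2 fold change of -0.03 ± 0.05. Of the remaining genes, *IFI6* rose by 0.67 ± 0.19, a call that was lost in DESeq2 (adjusted p = 0.0206) and without the first 0 h or the first control library (0.56 and 0.44). *XAF1* rose by 0.87 ± 0.12, *IFI44L* had a ratio of 7.28 (95% counting interval, 2.84 to 23.8), and *IFI35* and *IFI44* were not called, with log2 fold changes of 0.61 (adjusted p = 0.0284) and 0.08.

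**Figure D2:**
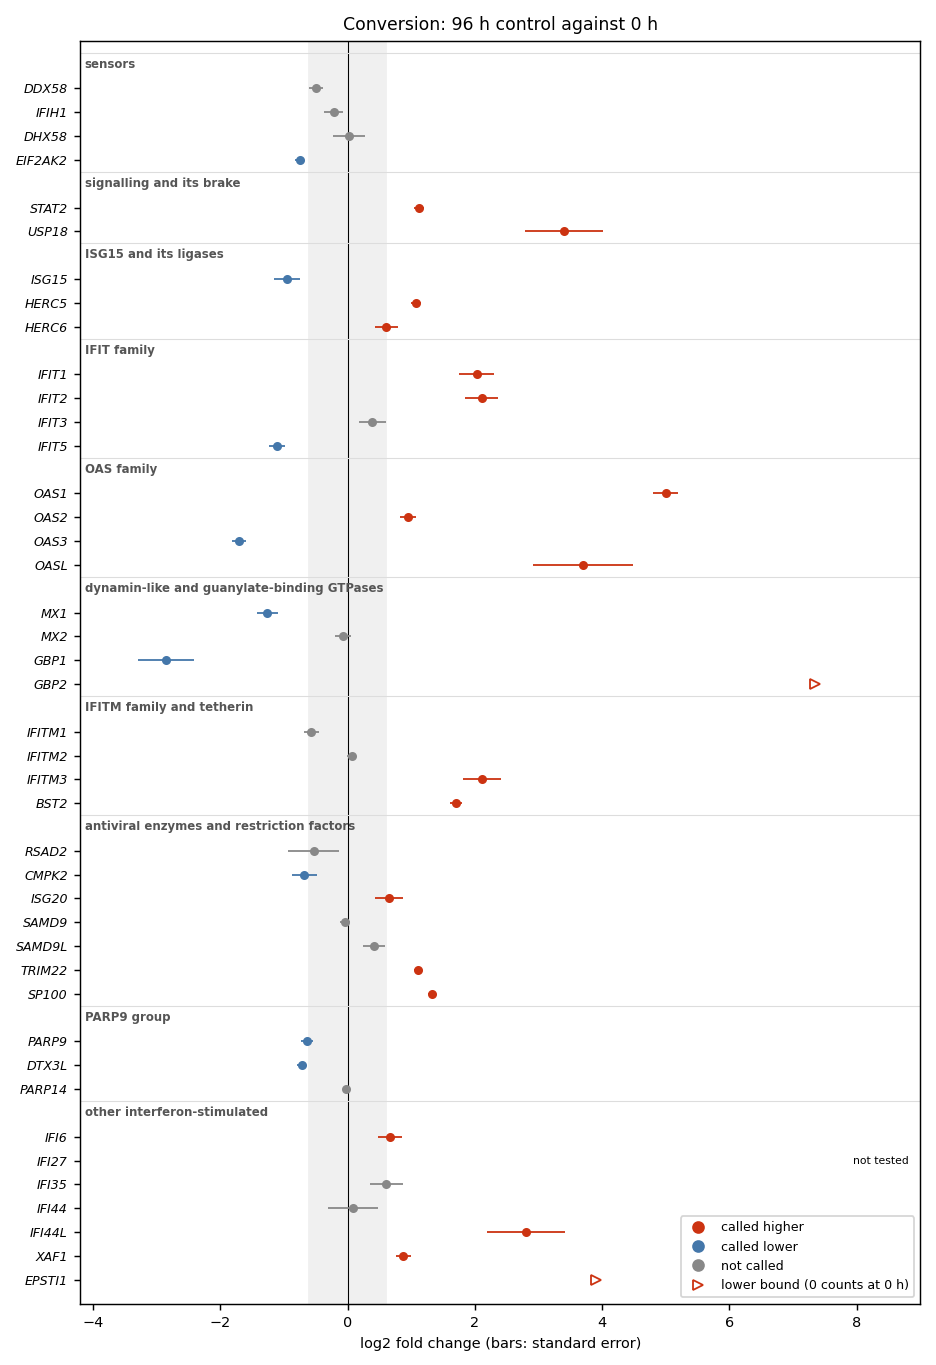
Log2 fold change of 96 h control relative to 0 h libraries for the tested interferon-stimulated genes, ordered by role; bars are standard errors of the edgeR model, red and blue points are genes called higher and lower, grey points are not called, the shaded band marks changes within the fold threshold of 0.6, and open triangles mark *GBP2* and *EPSTI1* at their lower bounds. The 19 higher and 9 lower genes are spread over the roles, and *OAS3*, *IFIT5* and *GBP1* lie on the other side of 0 from *OAS1*, *IFIT1* and *GBP2*.

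At the thresholds of the study, few of these genes were called upon CTCF depletion. Comparing CTCF-depleted with control libraries at 96 h, 4 of the 41 genes were higher (9.76%; 5.41% of all tested genes were higher) and 2 were lower (4.88%; 7.03% of all tested genes were lower). Together these are 14.6% of the set, near the 12.4% over all tested genes. The median log2 fold change of the set was 0.13, compared to -0.03 over all tested genes, and its quartiles were -0.26 and 0.34. With adjusted p-values under 0.05 as the only criterion, 13 members were higher (31.7%, compared to 16.1% of all tested genes). By the same criterion, 9 were lower (22.0%, compared to 22.6% of all tested genes). The 2 groups did not overlap for 34 of the 41 genes (82.9%), compared to 67.9% of all tested genes. The summed level of the 42 genes was 1284 ± 24.8 CPM in CTCF-depleted cells.

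*IFIT5* was higher in CTCF-depleted cells, with the counts given above. Control cells held 11.4 ± 0.31 CPM of this transcript (SD, n = 2) and cells without CTCF 21.4 ± 2.10 CPM (SD, n = 2), and it rose by 0.90 ± 0.13 on the log2 scale (adjusted p = 4.74e-08). Its level at 0 h was 24.7 ± 0.31 CPM, and CTCF-depleted cells differed from 0 h by a log2 fold change of -0.21 ± 0.11, which was not called. The other 3 genes of the IFIT family had log2 fold changes of 0.49 ± 0.20 (*IFIT1*), 0.53 ± 0.18 (*IFIT2*) and 0.34 ± 0.19 (*IFIT3*) upon CTCF depletion and were not called.

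*BST2* had 151 and 192 counts at 0 h, 532 and 539 in control and 849 and 785 in CTCF-depleted libraries. The 3 groups did not overlap, and *BST2* was higher in CTCF-depleted than in control cells by a log2 fold change of 0.64 ± 0.08 (adjusted p = 4.96e-10). *MX2*, which blocks nuclear entry of retroviruses, had 160 and 213 counts at 0 h, 193 and 148 in control and 267 and 248 in CTCF-depleted libraries. It rose upon CTCF depletion by 0.63 ± 0.12 on the log2 scale (adjusted p = 3.33e-05). Without the second control library, its log2 fold change was 0.51 and it was not called.

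*DHX58*, which encodes the RNA helicase LGP2 and modulates the other RNA sensors, had 39 and 54 counts at 0 h, 56 and 35 in control and 65 and 90 in CTCF-depleted libraries. Its replicates differed more, relative to their mean, than those of the other called genes, and its log2 fold change of 0.80 ± 0.23 had the largest adjusted p of the 6 (adjusted p = 0.00403). It was not called by DESeq2 (adjusted p = 0.0576), nor without the second control or the second CTCF-depleted library (log2 fold changes of 0.56 and 0.58, adjusted p = 0.131 from edgeR in both fits).

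*CMPK2* had 91 and 128 counts at 0 h, 59 and 72 in control and 26 and 20 in CTCF-depleted libraries. The CTCF-depleted libraries were the lowest, and *CMPK2* fell by 1.47 ± 0.26 on the log2 scale relative to control cells (adjusted p = 5.37e-06). It was the only gene of the set whose change upon CTCF depletion was called at a log2 fold change threshold of 1. *RSAD2*, which is known to be induced together with *CMPK2* and is its neighbour on the other strand, gave 14 and 15 counts in control and 13 and 16 in CTCF-depleted libraries. Its log2 fold change was 0.03, with a 95% interval of -0.84 to 0.90, so that at this depth a change of moderate size could not be seen.

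*IFITM2* had 1166 and 1421 counts at 0 h, 1263 and 1346 in control and 787 and 746 in CTCF-depleted libraries. The libraries with CTCF overlapped at both time points, and *IFITM2* fell by 0.74 ± 0.07 upon CTCF depletion (adjusted p = 2.32e-13). *IFITM3* had a log2 fold change of -0.77 ± 0.25 and an adjusted p of 0.0126, above the threshold, and *IFITM1* one of -0.13 ± 0.13. The 3 IFITM genes are close paralogs, and reads that fit several of them may not be assigned with certainty. Per kilobase of the canonical transcript, *IFITM2*, *TRIM22* and *BST2* had the highest levels of the set in control cells, at 117, 64.1 and 48.4 CPM per kb. In CTCF-depleted cells the values were 70.4, 48.3 and 75.4 CPM per kb, which placed *BST2* first.

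Several further genes passed the adjusted threshold with a change below the fold threshold. Lower in CTCF-depleted cells were *PARP14* (log2 fold change -0.37, adjusted p = 3.91e-08), *TRIM22* (-0.41, adjusted p = 6.54e-08), *OAS1* (-0.53, adjusted p = 0.000109), *HERC5* (-0.34, adjusted p = 0.000265), *OAS2* (-0.42, adjusted p = 0.00464) and *SAMD9* (-0.26, adjusted p = 0.00853). Higher were *DTX3L* (0.29, adjusted p = 0.00040) and *SP100* (0.20, adjusted p = 0.00326). Just outside the adjusted threshold, with changes above the fold threshold, were *IFI35* (0.64, adjusted p = 0.0163) and *IFI44L* (0.96, adjusted p = 0.0286). The other 24 tested genes, among them *STAT2*, *ISG15*, *MX1*, *GBP1* and *OAS3*, had an adjusted p-value of 0.01 or more in this comparison.

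**Figure D3:**
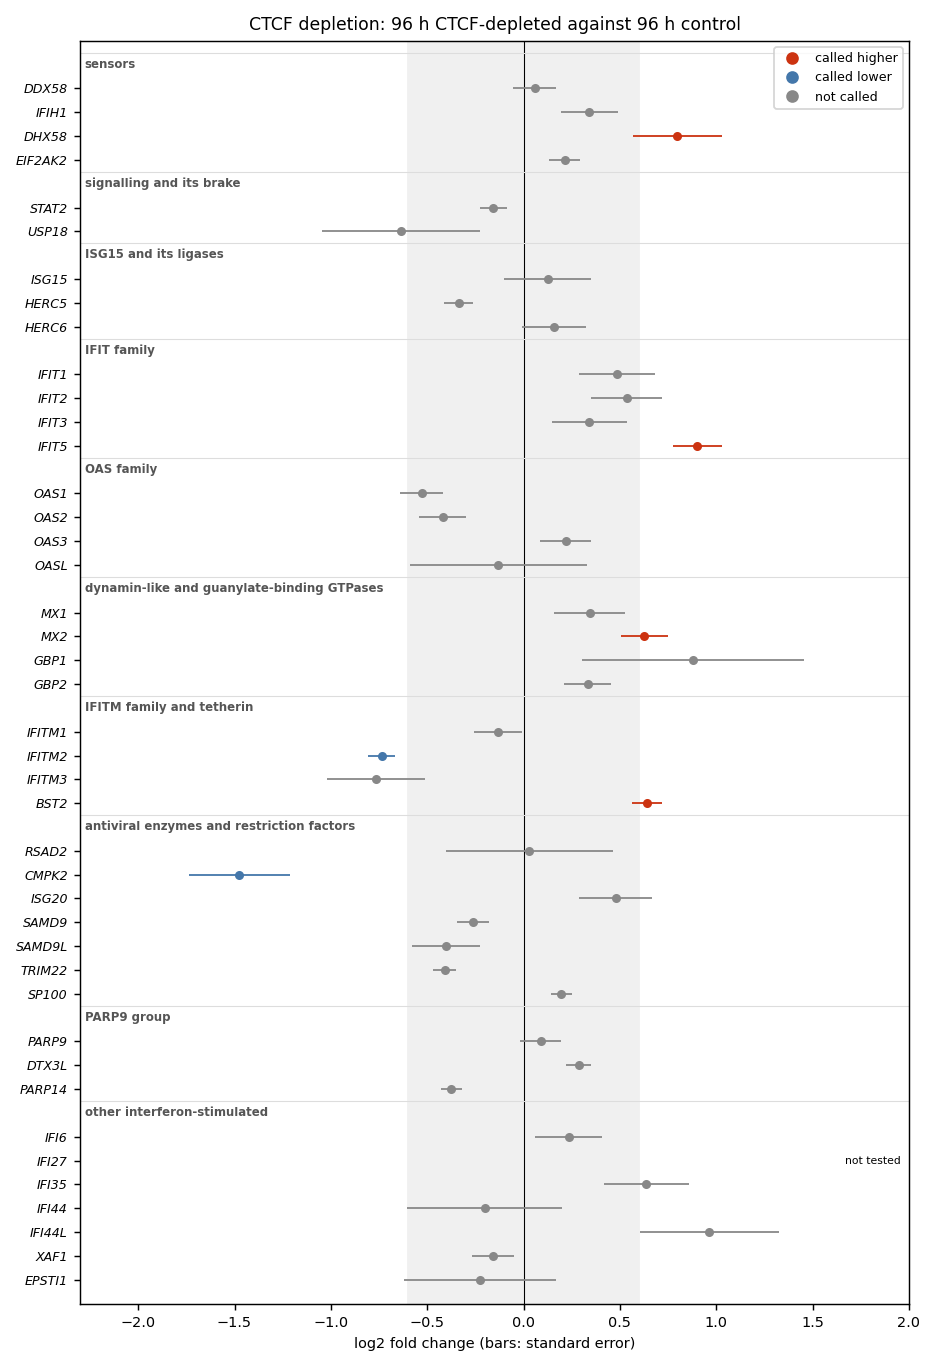
Log2 fold change of CTCF-depleted relative to control libraries at 96 h for the tested interferon-stimulated genes, ordered by role; bars are standard errors of the edgeR model, red and blue points are genes called higher and lower, grey points are not called, and the shaded band marks changes within the fold threshold of 0.6. The 6 called genes are *DHX58*, *IFIT5*, *MX2* and *BST2* above 0 and *IFITM2* and *CMPK2* below 0.

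Relative to 0 h, 21 genes were higher in CTCF-depleted cells (51.2%, compared to 27.2% of all tested genes). By the same thresholds, 7 were lower (17.1%, compared to 25.2% of all tested genes). The median log2 fold change was 0.70, compared to 0.02 over all tested genes. The higher genes again include *GBP2*, *EPSTI1*, *OASL*, *USP18* and *IFI44L*, which could be tested only through their counts at 96 h. With at least 10 counts required in every library, the median was lower, as given in the closing section. Both comparisons with 0 h use the same 0 h libraries. *DHX58* had a log2 fold change of 0.02 with and 0.82 without CTCF, *IFIT5* of -1.11 with and -0.21 without CTCF, and *IFITM2* of 0.06 with and -0.68 without CTCF. *OAS1* reached 5.00 with and 4.47 without CTCF.

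Many of these genes lie next to each other, and CTCF is known for its role in the domain structure of such regions. With gaps of at most 100 kb between neighbours, 24 of the 42 genes formed 10 clusters in GENCODE release 44. During conversion, 9 of the 10 clusters contained a called gene, and 3 contained genes called in opposite directions: *GBP1* and *GBP2* on chromosome 1, the 4 IFIT genes on chromosome 10 and *OAS1*, *OAS3* and *OAS2* on chromosome 12. Both members of the pairs *HERC6* and *HERC5* and *PARP9* and *DTX3L* were called in the same direction. The call of *HERC6* was lost in several alternative fits, as given above. Since 48.3% of all tested genes were called in this comparison, a called gene in a cluster of several genes is common, and the clusters were not compared with other groups of neighbours. Upon CTCF depletion, where 12.4% of all tested genes were called, 4 clusters contained a called gene, 1 gene in each: *IFIT5*, *IFITM2*, *CMPK2* and *MX2*. In the OAS cluster (chr12:112905856-113011723), *OAS1* and *OAS2* had log2 fold changes of -0.53 ± 0.11 and -0.42 ± 0.12 and *OAS3*, between them, one of 0.22 ± 0.13.

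The direction of change was set beside the ISRE core. Of 23 tested genes with a core in the window, 8 were higher and 8 were lower in control cells than at 0 h, with a median log2 fold change of -0.04; over all tested genes, 25.4% were higher and 22.9% lower. Of 9 tested genes with a window but no core, 5 were higher and 1 was lower, with a median of 0.61. Upon CTCF depletion (5.41% of all tested genes higher, 7.03% lower), 2 genes with a core were higher (*IFIT5* and *BST2*) and none was lower, and of the genes without a core *CMPK2* was lower. These are counts over few genes, and the difference between the sets was not tested. The search also passed over copies with 1 base between them, which the windows of *OAS1*, *IFI35* and *CMPK2* hold. A window without a core may therefore still hold an ISRE.

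The signalling pathway upstream of the set was given by lists of genes, whose counts stand against 25.4% higher and 22.9% lower over all tested genes during conversion and 5.41% and 7.03% upon CTCF depletion. All 21 interferon ligands were at or near 0: 17 had no count in any library, the highest count in a library was 2, and the 6 libraries together held 8 counts. A count of 0 allows up to 3 counts, or 0.225 to 0.309 CPM, depending on the library. Of 9 receptors and kinases, 8 were higher in control cells than at 0 h and none was lower. The type I receptor genes *IFNAR1* and *IFNAR2* rose by 1.64 ± 0.07 and 2.68 ± 0.07 on the log2 scale, and the type II receptor genes *IFNGR1* and *IFNGR2* rose by 2.61 ± 0.08 and 2.91 ± 0.06. The kinase *JAK2* had 207 and 286 counts at 0 h, 2938 and 3078 in control and 5057 and 5137 in CTCF-depleted libraries; it was the 1 gene of this list called upon CTCF depletion, with a log2 fold change of 0.79 ± 0.05 (adjusted p = 4.92e-21).

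Of 5 factors of the interferon response, 3 were higher in control cells than at 0 h. Among these, *IRF9*, the DNA-binding partner of STAT2, rose by 1.82 ± 0.12, and *IRF7*, which drives interferon transcription, rose by 2.10 ± 0.14. *IRF1* was not called during conversion (0.13 ± 0.07) and fell by 0.73 ± 0.08 upon CTCF depletion (adjusted p = 1.50e-11), with 850 and 805 counts in control and 490 and 486 in CTCF-depleted libraries. Of 12 adaptors of nucleic acid sensing, 5 were higher in control cells, led by *TMEM173* (STING; log2 fold change 3.93 ± 0.08), and none was lower; 0 were called by edgeR upon CTCF depletion. Of 8 feedback inhibitors, 3 were higher and 1 was lower in control cells. *SOCS1*, which inhibits the JAK kinases, rose by 0.71 ± 0.25 during conversion and by 0.68 ± 0.21 upon CTCF depletion (adjusted p = 0.00696).

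A list of 49 other interferon-stimulated genes, of which 41 were tested, gave 15 higher and 5 lower genes in control cells relative to 0 h (25.4% and 22.9% over all tested genes). Upon CTCF depletion, 2 were higher and 2 were lower (5.41% and 7.03% over all tested genes). *GBP3*, a further guanylate-binding protein, had a log2 fold change of 0.90 ± 0.25, and *BATF2*, a transcription factor of activated macrophages, went from 1 count in each control library to 10 in each CTCF-depleted library, a ratio of 10.2 with a 95% counting interval of 2.48 to 90.2. The apolipoproteins *APOL1* and *APOL2* fell by 1.83 ± 0.53 and 0.94 ± 0.18. In this list, 21 of 39 genes with a promoter window held an ISRE core (53.8%).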

How the data were processed

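RNA-seq counts of 6 libraries were used. The authors depleted ribosomal RNA, prepared stranded libraries, aligned the reads to hg38 with STAR 2.6.1d and deposited raw counts per gene. The methods describe counting with featureCounts 2.0.6 over protein-coding exons. The deposited counts cover 30017 genes, whose types were not examined here. The annotation release and strand setting are not given in the sources used here. Reads may therefore be shared where exons overlap another gene, on the same strand (43.2% of the exon length of *DDX58*, 23.1% of *IFI6*, 21.1% of *IFITM1*, 12.1% of *IFIT2*, 8.60% of *GBP2*) or the opposite strand (38.3% of *XAF1*, 14.2% of *IFITM3*, 8.00% of *CMPK2*); smaller overlaps concern 11 further members. The methods describe the replicates as biological.

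The counts entered edgeR 4.0.16 under R 4.3.3 (filterByExpr, TMM, quasi-likelihood, all 6 libraries, condition as the only term), and p-values were adjusted over all 14758 tested genes with the Benjamini-Hochberg method. The common biological coefficient of variation was 3.96%. The quasi-likelihood test returns no standard error. Each one given is the size of the log2 fold change divided by the square root of the F statistic. The 95% interval of *RSAD2* was built from this value with a t distribution. Replicates differed beyond sampling noise in every group (chi-square per degree of freedom 1.71 to 2.69). Counting intervals are exact binomial at 95% and cover counting error only, and the floor was 3 counts. Positions are from GENCODE release 44 and promoter windows from RefSeq; summaries used Python 3.11.15.

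The members and lists were chosen with earlier results of these data known. Given with counts in each library are the genes called upon CTCF depletion, the 4 with the largest change in each direction during conversion and the 3 highest per kilobase; other counts were given after their values were seen. Alternatives were DESeq2 1.42.0, RLE normalization, other filters and thresholds, glmTreat, a fit of the 4 libraries compared, a replicate block and leaving out each library.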

Additional observations from a re-analysis of the deposited data

Results flagged for a closer look

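In 3 genes of the set, the change relative to 0 h differed between cells with and without CTCF such that 1 of the 2 comparisons with 0 h was called and the other was not, and the difference itself, which is the comparison of CTCF-depleted with control libraries, was called. For *DHX58* the difference was a log2 fold change of 0.80, for *IFIT5* it was 0.90 and for *IFITM2* it was -0.74. *DHX58* is the gene whose difference also lost its call in DESeq2 and without single libraries. Its call in CTCF-depleted cells relative to 0 h was lost in DESeq2 as well (log2 fold change 0.83, adjusted p = 0.0214). That call was also lost without the second 0 h library (0.82) or the second CTCF-depleted library (0.60). The call of *IFITM2* in CTCF-depleted cells relative to 0 h was lost without the first 0 h library (log2 fold change -0.56). Groups of 2 libraries were not examined for outlying samples.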

How the results depend on the processing

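With 2 libraries per group, the calls rest on the spread shared across genes, and genes with few counts, such as *RSAD2*, *OASL* and *EPSTI1*, are limited by depth. Where a library is left out, the lone library of its group is assumed to vary like the others. DESeq2, RLE normalization and the replicate block moved none of the 3 pairs of counts by more than 1.5 times. Replicate numbers did not pair the libraries (correlations of deviations -0.0194, 0.0109 and -0.0294); with the block, 4 genes were higher and 2 lower upon CTCF depletion. The cause of the changes below was not tested, apart from those that follow from another threshold.

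For CTCF depletion, glmTreat and a log2 fold change threshold of 1 each left 0 higher genes and 1 lower gene (over all genes, 2.02% and 2.33% with glmTreat, 2.77% and 2.95% at the threshold of 1), and an adjusted p below 0.05 without a fold threshold gave 13 and 9 (16.1% and 22.6%). The median was 0.16 with only the 4 libraries compared. *IFITM3* was called lower with at least 10 counts in every library, with no filter and with the 4 libraries. For conversion, at least 10 counts in every library gave a median of 0.091, and 4 genes were lower with glmTreat and with a log2 threshold of 1 (16.2% and 14.1% of all genes). The calls of *HERC6*, *ISG20*, *IFI6* and *CMPK2* during conversion were lost in DESeq2 and without single libraries. For CTCF-depleted cells relative to 0 h, the median was 0.54 with at least 10 counts and 0.62 with no filter, 3 genes were lower with glmTreat (19.3% of all genes), 13 were lower at an adjusted p below 0.05 (38.3%), and 13 were higher and 3 lower at a log2 threshold of 1 (20.1% and 17.0%). With no filter, *DHX58* had a log2 fold change of -0.0133 during conversion. Leaving out single libraries gave 2 to 4 higher genes upon CTCF depletion, the lowest without the second control library, and medians of 0.13 to 0.19; relative to 0 h without CTCF, the median was 0.61 to 0.79.

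Of the genes not called, some changed sign when a library was left out. During conversion, the log2 fold change ranged from -0.35 to 0.29 for *DHX58*, -0.28 to 0.075 for *MX2*, -0.070 to 0.14 for *IFITM2*, -0.12 to 0.017 for *SAMD9*, -0.11 to 0.0087 for *PARP14* and -0.43 to 0.58 for *IFI44*. Upon CTCF depletion, it ranged from -0.058 to 0.23 for *DDX58*, -0.0055 to 0.35 for *ISG15*, -0.28 to 0.065 for *OASL*, -0.092 to 0.21 for *RSAD2*, -0.26 to 0.026 for *XAF1* and -0.44 to 0.095 for *EPSTI1*. For CTCF-depleted cells relative to 0 h, it ranged from -0.035 to 0.11 for *SAMD9L* and from -0.60 to 0.41 for *IFI44*.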
